A study of Mus musculus with 18 samples.

Results

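The 8 genes described here encode histone demethylases of the Jumonji C (JmjC) family whose activity is helped by vitamin C: Kdm2a, Kdm2b, Kdm3a, Kdm3b, Kdm4a, Kdm4b, Kdm4c and Kdm6b. They were taken by gene symbol from the deposited expression tables, where each has 1 of the 24505 entries, and all 8 were expressed above the filter for testing. RNA had been sequenced from E14Tg2a mouse embryonic stem cells, an established male line, either wild type or from a Daxx-null line made from it. Daxx is a chaperone that places the histone variant H3.3 on chromatin together with Atrx. Each genotype was kept in serum to which 1000 units/mL of LIF, a cytokine that keeps stem cells dividing, had been added. A second culture was 2i, a pair of kinase inhibitors that hold stem cells in the ground state, together with vitamin C at 100 µg/mL. Both were also taken off LIF for 24 h and then given 10 µM retinoic acid for 4 days, which starts neural differentiation. These 6 groups had 3 libraries each, which the labels call independent replicates without saying what separated them. The p-values below therefore rest on the spread among these libraries, which may be partly technical. The labels do not state whether the Daxx-null line is 1 clone or several, and loss of Daxx and any other way in which the lines differ cannot be told apart.

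JmjC demethylases are dioxygenases. They use iron, oxygen and 2-oxoglutarate to oxidise a methyl group on a histone lysine, which then leaves as formaldehyde, and vitamin C keeps the iron in its reduced, active form. Only the RNA of these enzymes was measured here, not their activity or the histone marks. Members differ in the lysine they act on. Kdm3a and Kdm3b remove mono- and dimethylation from lysine 9 of histone H3 (H3K9), a mark of silent chromatin, and the Kdm4 enzymes act on trimethylated H3K9 and on H3K36. Kdm2a and Kdm2b act on dimethylated H3K36 and bind unmethylated CpG islands. Kdm6b removes the Polycomb mark H3K27 trimethylation and is known for its part in neural commitment of stem cells.

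Expression is given in FPKM as deposited, a level per length of exon that can be compared between genes. By inference these values are about 10 times a conventional FPKM. Low values rose in even steps, each taken as 1 counted unit, which put the depth at 84.2 to 141.7 M units per library (M for mega). Between 2086 and 27006 units stood behind each value of a member, so the replicates and not the depth set the precision. Daxx RNA was 71.5 ± 2.58 against 326 ± 24.0 FPKM in serum (SD, n = 3 here and below), 56.0 ± 1.58 against 419.6 ± 16.5 in 2i and 61.7 ± 0.962 against 248 ± 14.9 in retinoic acid. No Daxx-null library reached the lowest wild-type value. Summed levels of the 7 stem cell markers checked were 24050 to 24390 FPKM in wild-type serum and 20370 to 21520 in wild-type 2i. They were 539 to 911 in the 6 retinoic acid libraries, where 9 neural and retinoic acid response genes summed to 2728 to 3428. Markers of other cell types were higher there too. In wild-type retinoic acid against wild-type serum, 6 primitive endoderm markers summed to 1637 ± 850 against 214 ± 26.8 FPKM. For 6 trophoblast markers these sums were 967 ± 92.9 against 138 ± 52.0, and for 6 fibroblast markers 291 ± 56.0 against 72.1 ± 18.6. In Daxx-null retinoic acid the 3 sums were 646 ± 93.9, 992 ± 287 and 188 ± 76.0. The stem cell markers were lower and more spread in Daxx-null 2i, at 16560, 8338 and 13920 in replicates 1 to 3, and replicate 2 there also had the highest sum of those 9 genes of the 6 libraries in 2i (1784 against 410.2 to 908). RNA from 4 Y-linked genes was near 0 in Daxx-null serum (2.18 to 2.74 FPKM summed) and retinoic acid (1.28 to 2.59) but not in Daxx-null 2i (183 to 245, wild-type 2i 319.8 to 359). Daxx-null cells in 2i thus differed from those in serum by Y-linked RNA as well as medium, and comparisons of the 2 cannot tell these apart.

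Promoters from RefSeq (GRCm38.p6, 250 bases before to 50 after each start) were at hand for 4 of the 8 genes. They are printed for the gene whose RNA ranged most between groups, Kdm4c, at both of its starts, and for Kdm3a, which had the largest genotype difference in 2i. KDM3A, KDM4B and KDM4C are known to be induced by hypoxia-inducible factor (HIF), whose response element holds the core ACGTG or GCGTG. Capitals mark each ACGTG on either strand, which also occurs within the E-box CACGTG. The form GCGTG was not marked or counted.
Kdm4c start of the deposited entry, chr4:74242247-74242546, plus strand: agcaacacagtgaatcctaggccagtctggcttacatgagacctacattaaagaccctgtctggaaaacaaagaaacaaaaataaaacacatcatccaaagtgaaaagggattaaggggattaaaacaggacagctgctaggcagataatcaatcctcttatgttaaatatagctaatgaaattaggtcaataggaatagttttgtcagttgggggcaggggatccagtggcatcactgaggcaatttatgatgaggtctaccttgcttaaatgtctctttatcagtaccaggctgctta
Kdm4c start farther into the gene, chr4:74251629-74251928, plus strand: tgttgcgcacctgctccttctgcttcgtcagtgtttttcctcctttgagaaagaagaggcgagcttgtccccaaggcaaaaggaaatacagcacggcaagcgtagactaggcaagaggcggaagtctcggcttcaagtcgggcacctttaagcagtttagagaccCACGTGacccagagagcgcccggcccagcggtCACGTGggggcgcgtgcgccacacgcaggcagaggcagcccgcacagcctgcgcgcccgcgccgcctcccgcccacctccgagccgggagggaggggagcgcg
Kdm3a start nearest the deposited entry, chr6:71632868-71633167, minus strand: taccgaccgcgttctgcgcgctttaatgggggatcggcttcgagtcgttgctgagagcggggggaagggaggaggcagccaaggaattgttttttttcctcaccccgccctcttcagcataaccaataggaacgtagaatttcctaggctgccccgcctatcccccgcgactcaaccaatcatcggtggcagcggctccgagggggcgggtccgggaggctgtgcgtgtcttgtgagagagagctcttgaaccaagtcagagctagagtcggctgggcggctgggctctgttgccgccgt
The window at the first Kdm4c start holds 0 CG dinucleotides, as do 5.43% of the 32851 promoters in the table. The window 9382 bases farther in holds 28 CG and 2 copies of CACGTG. Of all promoters listed 14.2% hold at least 28 CG, 0.594% hold at least 2 copies of CACGTG and 19.6% hold ACGTG on either strand. The Kdm3a window holds 24 CG (19.98% of promoters hold as many or more) and neither ACGTG nor CACGTG. Because GCGTG was not counted, these windows do not show whether a HIF core is absent. Exon FPKM do not show which start was used.

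All 8 genes sat in the upper range of the transcriptome. Averaged over the 18 libraries, Kdm3a (270.5 FPKM) and Kdm2b (268) were the most abundant, above 91.8% and 91.7% of all entries. Kdm4c (108) and Kdm4b (94.9) were the least, above 78.0% and 75.7%. The entry for Kdm2a (NM_001001984) lies on mm9 chromosome 19 from 4316147 to 4397077 on the minus strand, and that for Kdm3a (NM_001038695) on chromosome 6 from 71538964 to 71582911, minus strand. Kdm3b (NM_001081256) lies on chromosome 18 from 34936662 to 34999024, plus strand. Kdm4a (NM_001161823, 117809609 to 117852648, minus strand) and Kdm4c (NM_001172095, 73888401 to 74051768, plus strand) share chromosome 4. Kdm4b (NM_172132) is on chromosome 17 from 56465473 to 56542296, plus strand, and Kdm6b (NM_001017426) on chromosome 11 from 69212020 to 69227177, minus strand. Kdm2b (NM_013910) lies on chromosome 5 from 123320685 to 123350359, minus strand. No other entry of the table overlaps the span of a member. The Kdm2b entry covers 29675 bases, while the longest annotated transcript of the gene in the GENCODE annotation (GRCm38) spans 118628. A short form of Kdm2b from an internal start is known that lacks the JmjC domain. Which form gave the Kdm2b reads cannot be told from these levels.

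**Figure D1:**
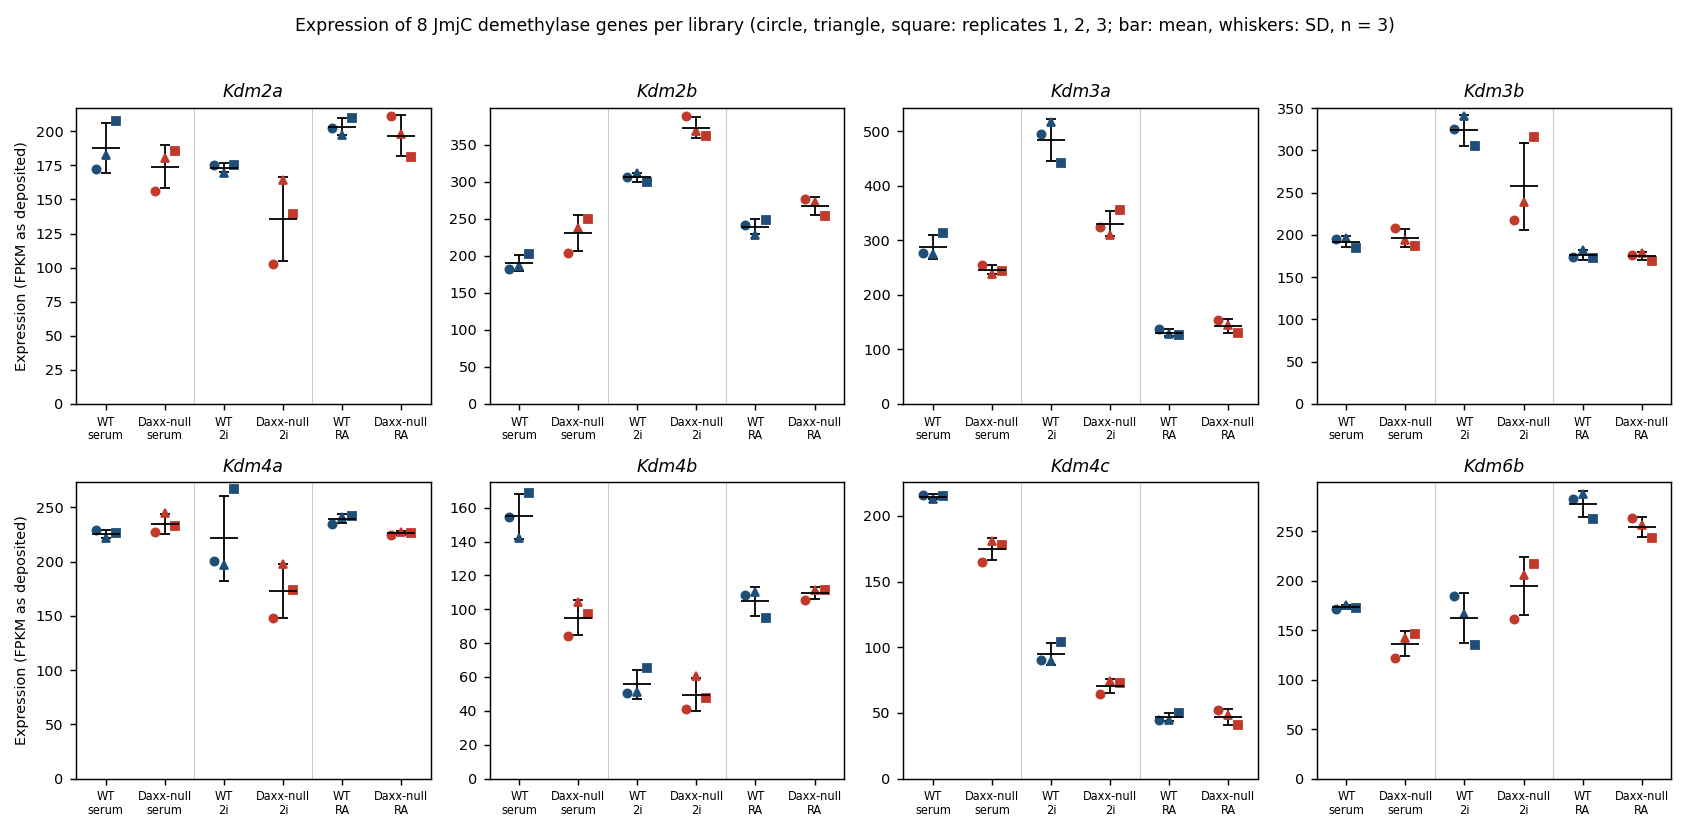
Expression of each gene (FPKM as deposited, linear axis from 0) in the 18 libraries, wild type in blue and Daxx-null in red, with the mean and SD of 3 libraries. Kdm4c steps down from serum to 2i to retinoic acid, Kdm3a is highest in wild-type 2i and Kdm6b in retinoic acid, and the 2 genotypes lie close together in retinoic acid.

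The first comparison asked how wild-type cells in 2i with vitamin C differed from those in serum. The labels list vitamin C only for 2i. Vitamin C, the kinase inhibitors and the change from serum with LIF therefore cannot be told apart. The 2 H3K9 families parted. Both Kdm3 genes rose and 2 of the 3 Kdm4 genes fell, while Kdm2b rose and Kdm2a, Kdm4a and Kdm6b were not called. Of the 8 members 3 were called higher and 2 lower (limma, Benjamini-Hochberg adjusted p under 0.05 over 18002 genes). Of all genes 24.7% were called higher and 24.8% lower.

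Kdm3a, which demethylates H3K9 and helps keep stem cells pluripotent, measured 277, 274 and 314 FPKM in wild-type serum replicates 1 to 3. In wild-type 2i it measured 495, 518 and 442. The groups did not overlap, and the log2 difference was 0.75 (95% interval 0.56 to 0.93, adjusted p = 3.8e-06). Genes of chromosome 6 as a whole had a median difference of 0.368 in this comparison, and with chromosome medians removed Kdm3a kept a difference of 0.41 (adjusted p = 0.00504). Its paralogue Kdm3b went from 195, 196 and 184 to 325, 341 and 305, again without overlap (0.75, 0.53 to 0.97, adjusted p = 2.2e-05). Together the pair summed to 480.4 ± 15.1 FPKM in serum and 808 ± 56.4 in 2i.

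Kdm4c, a demethylase of trimethylated H3K9, was steady in wild-type serum at 216, 213 and 216 FPKM and measured 90.3, 89.3 and 104 in 2i. That is 0.441 times the serum level (log2 -1.18, interval -1.40 to -0.97, adjusted p = 1.7e-07). Kdm4b, which acts on the same marks, went from 154, 142 and 168 to 50.5, 51.0 and 65.6 FPKM, or 0.36 times (-1.47, -1.77 to -1.18, adjusted p = 4.3e-07). Both genes were lower in every 2i library than in any serum library. Kdm4a behaved differently within the family. It read 229, 221 and 227 in serum and 201, 197 and 267 in 2i, where replicate 3 stood above replicates 1 and 2 (-0.04, -0.27 to 0.19, adjusted p = 0.792). The 3 Kdm4 genes summed to 595 ± 17.8 FPKM in serum and 372 ± 56.2 in 2i.

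Kdm2b, which recruits a variant Polycomb complex to CpG islands, read 183, 186 and 202 FPKM in serum and 307, 311 and 299.5 in 2i (0.69, 0.52 to 0.85, adjusted p = 3.0e-06). Its paralogue Kdm2a overlapped between the media, at 172, 183 and 208 against 175, 169 and 175 (-0.11, -0.39 to 0.17, adjusted p = 0.51). Kdm6b overlapped too, at 172, 176 and 172 in serum and 185, 167 and 135 in 2i (-0.11, -0.36 to 0.14, adjusted p = 0.479). Without 2i replicate 3, the lowest, the Kdm6b difference was 0.02 (adjusted p = 0.906).

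Retinoic acid gave another pattern in wild-type cells. Kdm4c and Kdm3a fell by more than 2-fold, Kdm4b fell less, Kdm6b and Kdm2b rose, and Kdm2a, Kdm3b and Kdm4a were not called. That is 2 members higher and 3 lower, where 30.4% of all genes were called higher and 34.1% lower. In such bulk samples fewer cells of a type and less RNA per cell cannot be told apart.

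Kdm4c reached its lowest wild-type level here, 44.7, 44.9 and 50.2 FPKM, which is 0.218 times the serum level (log2 -2.20, interval -2.41 to -1.98, adjusted p = 4.0e-11). Kdm3a read 138, 129 and 125 FPKM, 0.455 times serum (-1.14, -1.32 to -0.95, adjusted p = 1.4e-08). So the 2 genes that moved in opposite directions in 2i moved in the same direction in retinoic acid. Kdm4b read 109, 110.5 and 94.6 FPKM, below every serum library but above every 2i library (-0.56, -0.86 to -0.27, adjusted p = 0.00198). Kdm6b, the H3K27 demethylase, read 283, 288 and 263 FPKM against 172, 176 and 172 in serum (0.68, 0.43 to 0.93, adjusted p = 1.1e-04). Kdm2b read 241, 229 and 249 (0.33, 0.17 to 0.50, adjusted p = 0.00134).

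The uncalled members differed little from serum. Kdm2a read 202, 197 and 210.0 FPKM (0.12, -0.16 to 0.40). Kdm4a read 235, 241 and 242 (0.09, -0.14 to 0.32) and Kdm3b 174, 182 and 172 (-0.12, -0.34 to 0.10). Kdm4a and Kdm3b did not overlap with serum although they missed the threshold, at adjusted p = 0.51 and 0.309. Of all genes tested, 75.2% did not overlap in this comparison. That share was 58.2% for wild-type 2i against serum, and between the genotypes 54.7% in serum and 47.8% in 2i.

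**Figure D2:**
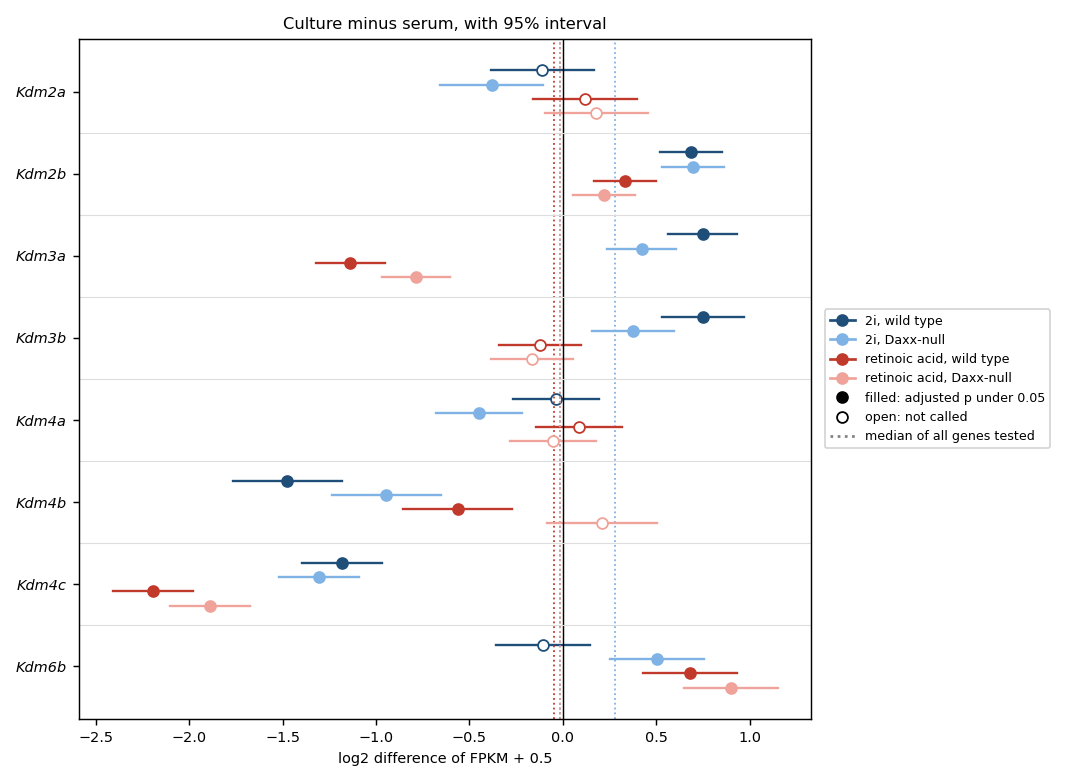
Differences of 2i and of retinoic acid from serum for each gene, in wild type and Daxx-null (log2 of FPKM + 0.5, points with 95% intervals, filled where the adjusted p is under 0.05, dotted lines at the median of all genes tested). Kdm4c falls in all 4 comparisons, and Kdm6b is called higher in 2i in Daxx-null (0.50) but not in wild type (-0.11).

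The same culture comparisons were made in Daxx-null cells. In 2i all 8 members were called, 4 higher and 4 lower, where 41.8% of all genes were higher and 21.8% lower. The median of all genes was shifted by 0.278 here, and 65.7% of called genes were higher against 45.4 to 54.3% under other scalings. Kdm2b (0.70), Kdm6b (0.50), Kdm3a (0.42) and Kdm3b (0.37) were called higher. Kdm4c (-1.30), Kdm4b (-0.94), Kdm4a (-0.45) and Kdm2a (-0.38) were called lower. Kdm2a was not called without 2i replicate 1 (-0.20, adjusted p = 0.102), serum replicate 2 (adjusted p = 0.0554) or serum replicate 3 (adjusted p = 0.0659). The increases of Kdm3a and Kdm3b depended on the scale. Genes of chromosome 6 had a median of 0.458 in this comparison, and Kdm3a was at -0.06 (adjusted p = 0.648) with chromosome medians removed and at 0.21 (adjusted p = 0.061) with median-ratio scaling. Kdm3b was at 0.09 (adjusted p = 0.565) and 0.16 (adjusted p = 0.213) in those settings.

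In retinoic acid 4 members were called in Daxx-null cells, 2 higher and 2 lower, against 33.0% and 33.1% of all genes. Kdm6b rose (0.90, adjusted p = 5.4e-06) and Kdm2b rose (0.22, adjusted p = 0.0204). Kdm4c fell (-1.89, adjusted p = 1.7e-10) and so did Kdm3a (-0.79, adjusted p = 7.6e-07). All 4 had been called in the same direction in wild type. The 2 comparisons share 1 estimate of spread, and the share of all genes called alike in both was not counted. The Kdm2b call was lost without Daxx-null retinoic acid replicate 1 (adjusted p = 0.0681) or 2 (0.061) or serum replicate 1 (0.128). Kdm4b, called lower in wild type, was at 0.21 here (adjusted p = 0.197), with 105, 112 and 112 FPKM against 84.0, 104 and 97.0 in serum.

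The comparison of genotypes in serum asked how these genes differed between Daxx-null and wild-type cells in ordinary stem cell culture. Kdm4b fell most, Kdm4c and Kdm6b were called lower by smaller margins, and Kdm2b was called higher. That is 1 member higher and 3 lower of 8, where 9.29% of all genes were called higher and 18.9% lower. The median of all genes was -0.121, and the members' median was -0.167. Of all called genes 32.9% were higher, against 49.2 to 52.8% under other scalings. Y-linked RNA, near 0 in Daxx-null serum and retinoic acid as given above, was not so in wild type. There the 4 genes summed to 158 to 259 FPKM in serum and 156 to 166 in retinoic acid. In both cultures loss of Daxx and the near absence of Y-linked RNA cannot be told apart. Cell type markers differed as well. Stem cell markers summed to 28040 ± 2601 FPKM in Daxx-null serum against 24250 ± 174 in wild type, primitive endoderm markers to 72.1 ± 3.48 against 214 ± 26.8, trophoblast markers to 67.1 ± 19.4 against 138 ± 52.0 and fibroblast markers to 25.3 ± 2.66 against 72.1 ± 18.6. Of the fibroblast markers 1 of 6 was at 0 in all 3 Daxx-null libraries, and the part of these markers in the differences was not tested.

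Kdm4b measured 84.0, 104 and 97.0 FPKM in Daxx-null serum replicates 1 to 3, against 154, 142 and 168 in wild type. Every Daxx-null library was below every wild-type library, and the level was 0.614 times wild type (log2 -0.70, interval -0.997 to -0.41, adjusted p = 0.00151). This call held in every alternative run, with differences between -0.77 and -0.59. Kdm4c measured 165, 181 and 178 against 216, 213 and 216, or 0.813 times (-0.30, -0.51 to -0.08, adjusted p = 0.0369). Its libraries did not overlap, but the call was lost without any single one of the 6 libraries (adjusted p 0.0585 to 0.127) and under all 4 other scalings (adjusted p 0.0629 to 0.213). Of these scalings the authors' log2 table and quantile normalization are nearly the same. Kdm6b measured 122, 142 and 146 against 172, 176 and 172 (-0.35, -0.60 to -0.10, adjusted p = 0.0388). Its call was lost without any of 5 of the 6 libraries (adjusted p 0.0591 to 0.166, all but Daxx-null replicate 3). The Kdm6b call was also lost with the authors' log2 table (adjusted p = 0.102), quantile normalization (0.103) and median-ratio scaling (0.123). Chromosome 11, where Kdm6b lies, had a median of -0.262 over 1470 genes, and with chromosome medians removed Kdm6b was at -0.08 (adjusted p = 0.686).

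Kdm2b was the only member called higher in serum, at 204, 238 and 250.1 FPKM against 183, 186 and 202 (0.28, 0.11 to 0.44, adjusted p = 0.0148). Relative to the median of all genes that is 0.40. The groups did not overlap, and the call was lost without Daxx-null replicate 2 (adjusted p = 0.0573) or 3 (0.0795) or wild-type replicate 1 (0.0625) or 2 (0.0511). Kdm3a measured 255, 239 and 245 against 277, 274 and 314. It lay below wild type in all 3 libraries but missed the threshold (-0.23, -0.41 to -0.04, adjusted p = 0.0611). Genes of chromosome 6 had a median of -0.211 here, and with chromosome medians removed Kdm3a was at 0.009 (adjusted p = 0.964). With a fit on the serum libraries alone Kdm3a was called (adjusted p = 0.0384). Kdm2a (156, 180.4 and 186 FPKM, -0.11), Kdm3b (208, 193 and 187, 0.03) and Kdm4a (227, 245 and 233, 0.06) overlapped with wild type, with adjusted p of 0.589, 0.873 and 0.749.

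**Figure D3:**
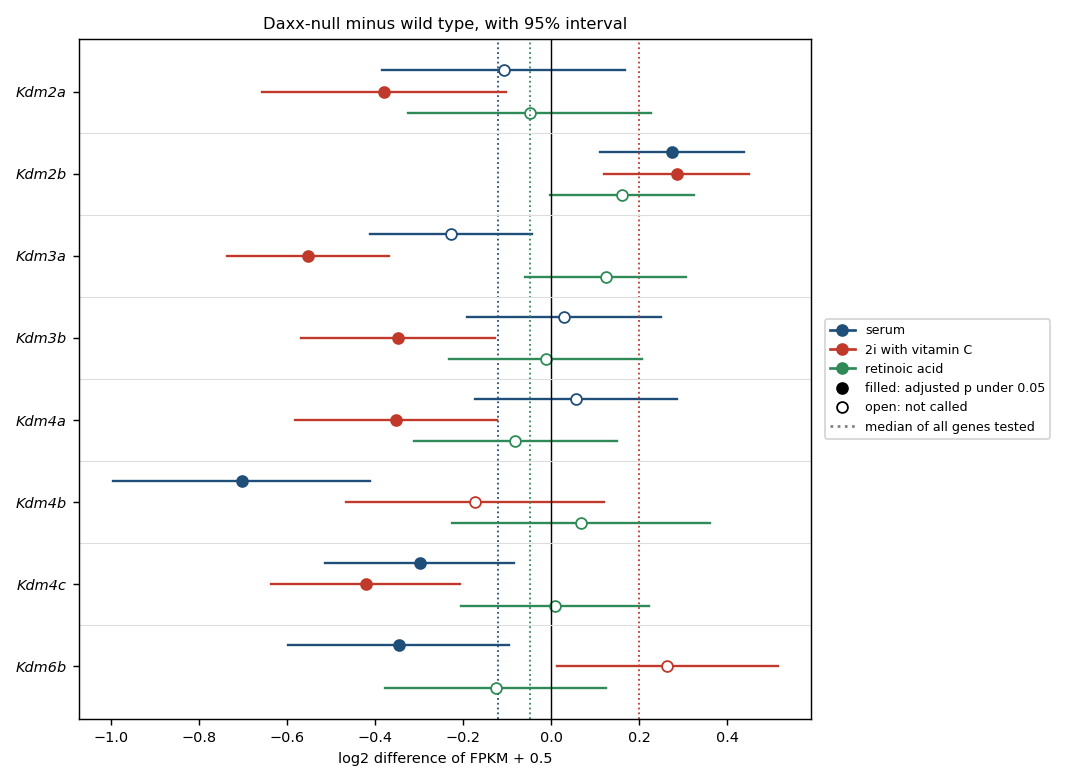
Daxx-null minus wild type for each gene in the 3 cultures (log2 of FPKM + 0.5, points with 95% intervals, filled where the adjusted p is under 0.05, dotted lines at the median of all genes tested). Called members lie mostly below 0 in serum and 2i, Kdm2b lies above 0 in both, and no point is filled in retinoic acid.

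In 2i, 6 members were called between the genotypes, and 4 of these had not been called in serum. Kdm3a fell most, Kdm4c, Kdm2a, Kdm4a and Kdm3b were called lower and Kdm2b higher. That is 1 member higher and 5 lower, where 31.5% of all genes were higher and 15.3% lower. The median of all genes was 0.199 and that of the members -0.350. Of all called genes 67.3% were higher, against 46.9 to 53.7% under other scalings. Stem cell markers, given above, were also lower in Daxx-null 2i. Summed levels of 6 trophoblast markers were 661 ± 97.4 FPKM there against 117 ± 49.4 in wild type, those of 6 primitive endoderm markers 509 ± 297 against 163 ± 60.1 and those of 6 fibroblast markers 167 ± 183 against 71.0 ± 44.7. None of these markers was at 0 in all 3 libraries of either group, and their part in the differences was not tested. With a fit on the 6 libraries of 2i alone, Kdm3a stayed called (adjusted p = 0.0194) and no other member did.

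Kdm3a measured 325, 310.1 and 356 FPKM in Daxx-null 2i against 495, 518 and 442 in wild-type 2i, without overlap. The level was 0.682 times wild type (log2 -0.55, interval -0.74 to -0.37, adjusted p = 1.2e-04), and the call held in every alternative run (-0.71 to -0.46). Kdm4c measured 64.3, 74.3 and 72.8 against 90.3, 89.3 and 104, also without overlap (-0.42, -0.64 to -0.21, adjusted p = 0.00305). It was called in every alternative but the fit on 2i libraries alone (adjusted p = 0.0541). Kdm3b measured 218, 238 and 316 against 325, 341 and 305 (-0.35, -0.57 to -0.13, adjusted p = 0.0121). Here Daxx-null replicate 3 reached the wild-type range, and without replicate 1 the adjusted p was 0.0561. Kdm4a measured 148, 198 and 173 against 201, 197 and 267 (-0.35, -0.58 to -0.12, adjusted p = 0.0144). Its groups overlapped, and the call was lost without Daxx-null replicate 1 (adjusted p = 0.0662) or wild-type replicate 3 (0.0805).

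Among the H3K36 demethylases the paralogues moved apart. Kdm2b rose to 389, 368 and 362 FPKM from 307, 311 and 299.5, its highest level in the study (0.29, 0.12 to 0.45, adjusted p = 0.00686). With median-ratio scaling it was at 0.13 (adjusted p = 0.15). Kdm2a measured 103, 164 and 139 against 175, 169 and 175 (-0.38, -0.66 to -0.10, adjusted p = 0.0253). This call leaned on Daxx-null replicate 1, the lowest library, without which it was -0.20 (adjusted p = 0.124). It was also lost without wild-type replicate 1 (adjusted p = 0.0577) or 3 (0.0614) and with chromosome medians removed (-0.21, adjusted p = 0.185). Kdm4b (40.9, 60.5 and 47.4 FPKM, -0.17, adjusted p = 0.315) and Kdm6b (161, 206 and 217, 0.26, adjusted p = 0.0777) overlapped with wild-type 2i. Kdm4b was called lower with the authors' log2 table (-0.39, adjusted p = 0.0237) and with quantile normalization (-0.395, adjusted p = 0.0235). Kdm6b was called without Daxx-null replicate 1 (0.39, adjusted p = 0.0091) or wild-type replicate 1 (0.37, adjusted p = 0.0264).

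After retinoic acid no member was called in either direction, where 0.222% of all genes were called higher and 2.27% lower. With limma 0 members also passed an unadjusted p under 0.05, the smallest being 0.0541 for Kdm2b. The share of all genes that passed it was not counted. Differences ran from -0.13 for Kdm6b to 0.16 for Kdm2b, and their 95% intervals from -0.38 to 0.36. Kdm2b measured 277, 273 and 254 FPKM in Daxx-null against 241, 229 and 249 in wild type, and Kdm4a 225, 228 and 227 against 235, 241 and 242. These 2 genes did not overlap between genotypes, as was so for 27.5% of all genes tested. Kdm2a (211, 198 and 181 FPKM), Kdm3a (154, 146 and 129), Kdm3b (176, 179 and 169), Kdm4b (105, 112 and 112), Kdm4c (52.5, 48.2 and 40.5) and Kdm6b (264, 257 and 244) did.

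Whether the genotype difference itself changed between cultures was tested as a difference of differences. Between 2i and serum 2 members were called higher and 3 lower, against 31.5% and 11.5% of all genes. The median of all genes was 0.337, and 73.2% of called genes were higher against 47.0 to 54.0% under other scalings. Kdm6b had a difference of 0.61 (0.26 to 0.97, adjusted p = 0.00833), being called lower than wild type in serum and not in 2i. Relative to the median of all genes that is 0.27, and on that scale Kdm4a was at -0.75, Kdm3b at -0.71, Kdm3a at -0.66 and Kdm2a at -0.61. It stayed called without any single library, but not with chromosome medians removed (0.24, adjusted p = 0.252) or median-ratio scaling (0.35, adjusted p = 0.0796). Kdm4b (0.53, adjusted p = 0.0385) was lower in Daxx-null cells in serum and not called in 2i. Its difference of differences was 0.21 with the authors' log2 table (adjusted p = 0.388) or quantile normalization (0.397), 0.27 with median-ratio scaling (0.296) and 0.33 with chromosome medians removed (0.239). Kdm3a (-0.33, adjusted p = 0.042), Kdm3b (-0.38, adjusted p = 0.0482) and Kdm4a (-0.41, adjusted p = 0.0414) had lower values in 2i. These 4 calls were close to the threshold, and most single libraries decided them. Kdm3a stayed called only without replicate 3 of Daxx-null 2i, wild-type 2i or wild-type serum, and reached an adjusted p of 0.1 otherwise. Kdm3b stayed called only without replicate 3 of Daxx-null 2i or wild-type 2i (up to 0.108 otherwise). Kdm4a stayed called only without Daxx-null 2i replicate 2 or wild-type 2i replicate 1 or 2 (up to 0.0928 otherwise). Kdm4b was lost without Daxx-null 2i replicate 2, Daxx-null serum replicate 1 or 3, wild-type 2i replicate 1 or 2, or wild-type serum replicate 1 or 3 (up to 0.0994). Kdm2b differed little between the media (0.01, -0.22 to 0.24), Kdm4c was at -0.12 (-0.43 to 0.18) and Kdm2a at -0.27 (-0.66 to 0.12). Both were called with median-ratio scaling, Kdm4c at -0.39 (adjusted p = 0.0481) and Kdm2a at -0.54 (adjusted p = 0.0248), and Kdm2a also without Daxx-null 2i replicate 2 (-0.42, adjusted p = 0.0425).

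Between retinoic acid and serum 1 member was called higher and 0 lower, against 4.82% and 3.38% of all genes, and 58.8% of called genes were higher against 44.9 to 47.0% under other scalings. This was Kdm4b (0.77, 0.36 to 1.19, adjusted p = 0.0237), lower in Daxx-null serum and level with wild type in retinoic acid. The call was lost without Daxx-null retinoic acid replicate 2 (adjusted p = 0.0592), Daxx-null serum replicate 1 (0.0644), wild-type retinoic acid replicate 3 (0.0601) or wild-type serum replicate 1 (0.0508) or 3 (0.0639). At an unadjusted p under 0.05 there were 3 members, and the share of all genes at that threshold was not counted.

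**Figure D4:**
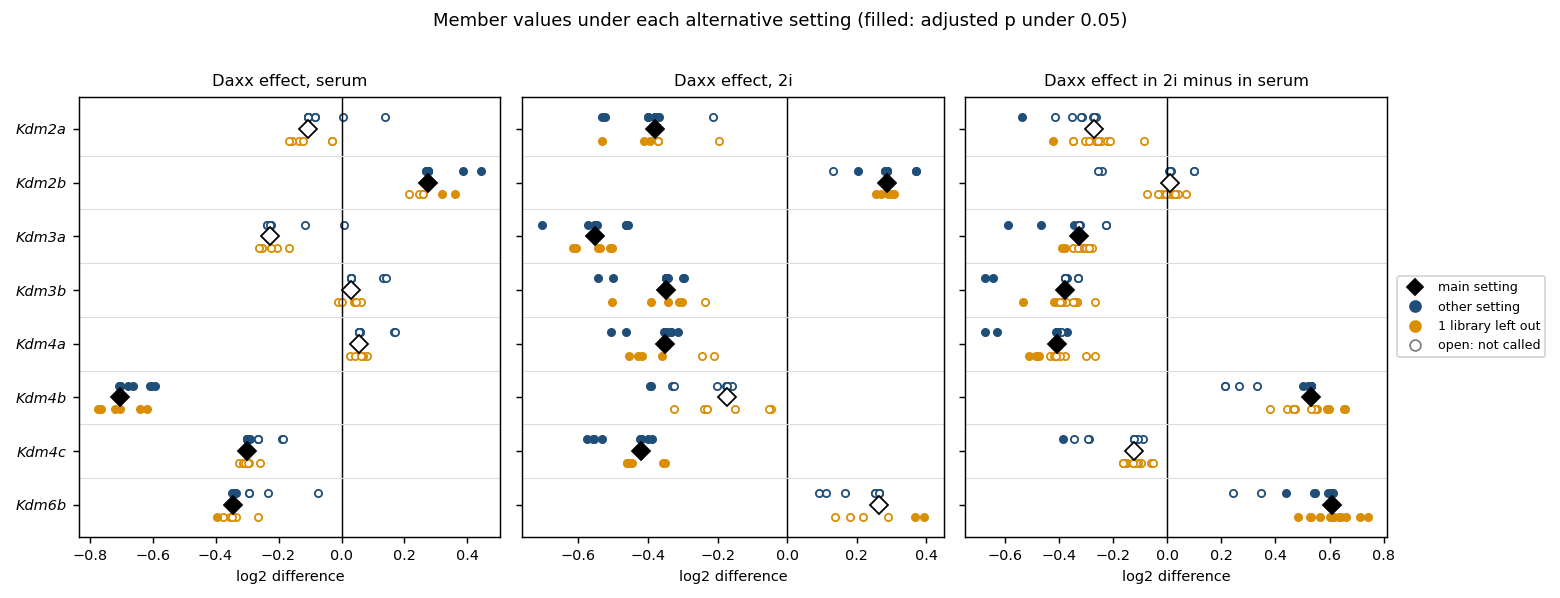
Daxx-null minus wild type in serum and in 2i, and the difference of the 2, for each gene under every alternative setting (diamonds: the setting used in the text, blue: other settings, orange: 1 library left out, filled where the adjusted p is under 0.05; x axes in log2 units). Kdm4b in serum and Kdm3a in 2i are filled throughout, whereas Kdm4c and Kdm6b in serum turn open under most changes.

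Ordered by level, the groups formed a different ladder for each gene. Kdm4c had the widest range, 4.61-fold between its highest and lowest group mean, from wild-type serum (215 ± 1.91 FPKM) through Daxx-null serum (175 ± 8.55), wild-type 2i (94.7 ± 8.38) and Daxx-null 2i (70.5 ± 5.40) to retinoic acid. No neighbours overlapped down to that point, and only the last 2 groups, Daxx-null (47.1 ± 6.09) and wild-type (46.6 ± 3.11) retinoic acid, did. Kdm3a spanned 3.71-fold, from wild-type 2i (485 ± 38.5) to wild-type retinoic acid (131 ± 6.55). Daxx-null 2i and wild-type serum overlapped as neighbours, as did the 2 groups in retinoic acid. Kdm4b spanned 3.12-fold, from wild-type serum (155 ± 13.3) to Daxx-null 2i (49.6 ± 9.97), with wild-type retinoic acid overlapping both Daxx-null retinoic acid above it and Daxx-null serum below it and the 2 groups in 2i at the bottom.

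Kdm6b (2.04-fold), Kdm2b (1.96-fold) and Kdm3b (1.85-fold) had intermediate ranges. Kdm6b was highest in retinoic acid (278 ± 13.1 in wild type) and lowest in Daxx-null serum (137 ± 12.9), and its 4 groups outside retinoic acid overlapped as neighbours. Kdm2b ran from Daxx-null 2i (373 ± 14.3) to wild-type serum (190.1 ± 10.5), and only wild-type retinoic acid and Daxx-null serum overlapped as neighbours. Kdm3b ran from wild-type 2i (324 ± 18.1) to Daxx-null retinoic acid (174 ± 4.83), overlapping between genotypes in every culture. Kdm2a (1.5-fold) and Kdm4a (1.38-fold) were the flattest. The 5 upper groups of Kdm2a overlapped in turn, and the lowest, Daxx-null 2i (135 ± 30.9), did not overlap with its neighbour wild-type 2i. All neighbours of Kdm4a overlapped, from 239.5 ± 4.27 in wild-type retinoic acid to 173 ± 25.1 in Daxx-null 2i.

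Summed over the 8 genes the level moved less than its parts. It was 1627 ± 55.9 FPKM in wild-type serum, 1822 ± 25.5 in 2i and 1418 ± 10.2 in retinoic acid, and 1488 ± 58.3, 1584 ± 121 and 1420 ± 56.3 in Daxx-null cells. The makeup changed more. Kdm3a made up 17.7 ± 0.725% of the sum in wild-type serum, 26.6 ± 1.75% in 2i and 9.22 ± 0.408% in retinoic acid. Kdm4c went from 13.2 ± 0.415% to 5.20 ± 0.535% and 3.29 ± 0.244%, and Kdm6b from 10.7 ± 0.428% to 8.89 ± 1.31% and 19.6 ± 0.801%. The 5 members that act on H3K9 (the Kdm3 pair and the Kdm4 trio) summed to 1181 ± 17.2 FPKM in wild-type 2i and 881 ± 84.5 in Daxx-null 2i. In serum they summed to 1076 ± 31.2 and 947 ± 13.5, and in retinoic acid to 697 ± 11.7 and 700.2 ± 20.1. The genotypes did not overlap in this sum in 2i (1162 to 1196 against 796 to 965) or serum (1047 to 1109 against 939 to 962), and overlapped in retinoic acid. The sums were not tested or rescaled. Between the genotypes the median log2 difference of all genes was itself -0.121 in serum and 0.199 in 2i.

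**Figure D5:**
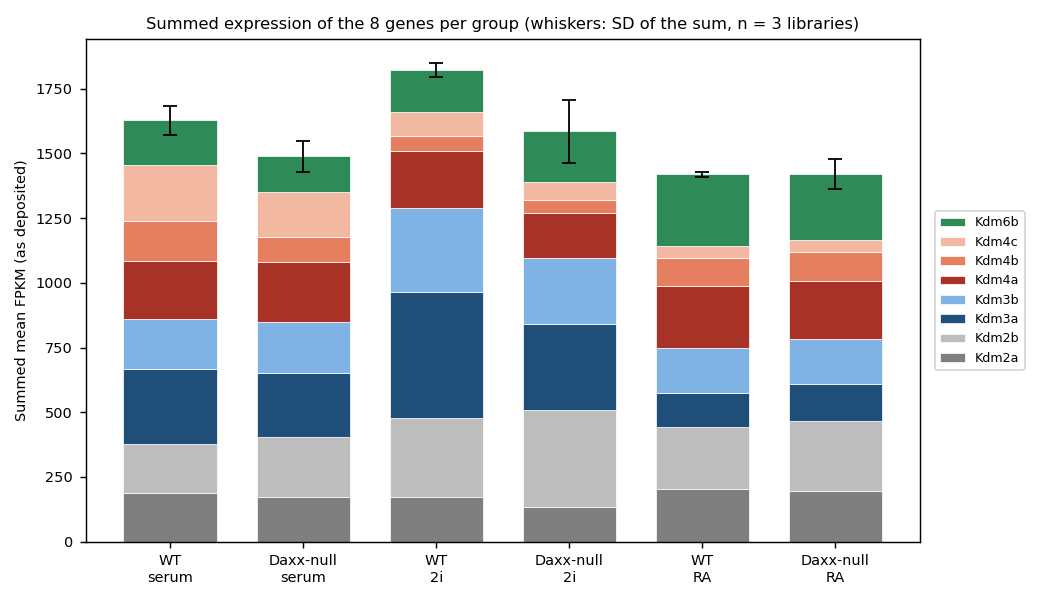
Mean FPKM of the 8 genes stacked per group (axis from 0), with the SD of the sum over 3 libraries. The total lies between 1418 and 1822, while the Kdm3a and Kdm4c layers thin out in retinoic acid and the Kdm6b layer is thickest there.

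Across the 18 libraries some members followed each other and others ran opposite. These correlations of log2 values describe 18 points that share 6 groups, and carry no test. Kdm3a and Kdm3b had r = 0.857 and Kdm2a and Kdm4a r = 0.817. Kdm2b and Kdm4b had r = -0.88, Kdm4c and Kdm6b -0.792, and Kdm3b and Kdm4b -0.767. Among 11635 other genes with a mean of at least 10 FPKM, the 3 most like Kdm4c were Ccdc92b (r = 0.99), Pald1 (0.983) and Ydjc (0.982). Those most like Kdm3a were Slc6a7 (0.986), Zfp870 (0.986) and Dnaaf5 (0.983), and those most like Kdm6b were Pcnx (0.98), Senp7 (0.976) and Yeats2 (0.972). Kdm4b was most like Wasf3 (0.968), Armcx1 (0.967) and Abhd14b (0.959), and Kdm2b most like Ufd1l (0.955), Mapk14 (0.952) and Cdipt (0.951). For Kdm3b these were Ptgfrn (0.946), Prrt3 (0.944) and Il6ra (0.941), and for Kdm2a Gpam (0.931), Scaf1 (0.921) and Sox1 (0.919), a neural regulator. Kdm4a had the least close neighbours, Mgat3 (0.909), Ankrd11 (0.894) and Tmem234 (0.89).

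Other JmjC genes moved in both directions too. Of 22 tested, 5 were called higher and 4 lower in Daxx-null than in wild-type serum. For the genotypes in 2i these counts were 3 and 6. After retinoic acid 0 were higher, and the 1 lower gene was the Y-linked Uty (-5.46). Uty was also among those called lower in serum (-5.39) and 2i (-0.94). Y-linked RNA as a whole was near 0 in Daxx-null serum and retinoic acid, as given above, and its part in these counts was not tested. The lower share in serum, 18.2%, lay near the 18.9% of all genes called lower there. For all lists below, the shares of all genes called higher and lower are those given above, 9.29% and 18.9% for the genotypes in serum, 31.5% and 15.3% in 2i and 0.222% and 2.27% after retinoic acid. Within wild type, set against serum, they are 24.7% higher and 24.8% lower for 2i, then 30.4% higher and 34.1% lower for retinoic acid. In wild type 5 were higher and 7 lower in 2i than in serum, and 5 and 11 in retinoic acid. Kdm5b, a demethylase of active H3K4 marks, was the most abundant of those named here. It read 903 ± 55.0 FPKM in wild-type serum and 521 ± 85.8 in wild-type 2i (log2 -0.81, adjusted p = 5.6e-05), and 877 ± 62.6 in Daxx-null 2i, higher than wild type by 0.76 (adjusted p = 1.5e-04). Its relative Kdm5c went the other way in Daxx-null 2i (141 ± 18.9 against 183 ± 7.54, -0.39, adjusted p = 0.00158), and Kdm5a was not called in any culture (adjusted p = 0.89 in serum, 0.787 in 2i and 0.76 in retinoic acid). Kdm6a, the X-linked H3K27 demethylase, was higher in Daxx-null serum (109 ± 3.49 against 83.0 ± 1.57, 0.38, adjusted p = 0.0184), where Kdm6b was lower. The Kdm6a call was lost without Daxx-null replicate 1 (adjusted p = 0.0635) or wild-type replicate 1 (0.0566) or 3 (0.05). Uty, the Y-linked relative of Kdm6a, was at 0.032 ± 0.0331 FPKM in Daxx-null serum against 22.5 ± 6.87, and at 12.7 ± 0.689 against 24.9 ± 3.82 in 2i. The Y-linked Kdm5d read 7.95 ± 1.77 in wild-type 2i and 8.79 ± 1.13 in Daxx-null 2i, and 0.569 ± 0.240 and 0.0417 ± 0.0364 in serum.

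FAD-dependent demethylases, Kdm1a and Kdm1b with 3 partners, do not use 2-oxoglutarate. Of these 5 genes 0 were called in Daxx-null serum or retinoic acid, and 2 were higher and 1 lower in 2i. Kdm1a read 729 ± 17.0 FPKM in wild-type serum and 503 ± 23.5 in 2i. The CoREST proteins that hold Kdm1a on chromatin moved apart in Daxx-null 2i, with Rcor2 lower (-1.23) and Rcor3 (1.23) and Rcor1 (0.57) higher.

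Other dioxygenases that respond to vitamin C moved mostly down in Daxx-null serum, where 10 of 18 tested fell and 2 rose, with a median of -0.695 against -0.121 for all genes. The largest differences were those of P4ha2 (-1.76), a collagen prolyl hydroxylase, and of Egln3 (-1.70) and Egln1 (-1.61), the hydroxylases that mark HIF for breakdown. In Daxx-null 2i 6 were higher and 5 lower. Tet1, which oxidises methylated DNA, fell there from 226 ± 20.4 to 138 ± 32.4 FPKM (-0.72, adjusted p = 6.8e-04). Tet2 fell there as well (-0.75, adjusted p = 4.3e-04) and was higher in Daxx-null serum (0.49, adjusted p = 0.0142), where the call was lost without Daxx-null replicate 1 (0.0587) or wild-type replicate 2 (0.0538). In wild type 2 of the list were higher and 9 lower in 2i than in serum, and 7 and 4 in retinoic acid.

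Genes that bring vitamin C into the cell or recycle it were called in both directions. Their list also holds Gulo and Rgn, which belong to vitamin C synthesis. Between the genotypes 2 of 12 genes of the list tested were called higher and 2 lower in serum, with Gulo (1.36) among the higher. In 2i these counts were 6 and 1, with Gulo (2.28) and Rgn (1.56) among the higher, and after retinoic acid 0 and 0. In wild type 4 were higher and 5 lower in 2i than in serum. Slc23a1, a sodium-dependent vitamin C transporter, was at 9.62 ± 1.43 FPKM in wild-type serum and 103 ± 15.5 in Daxx-null serum (3.35, adjusted p = 1.5e-07). In the other 4 groups its mean lay between 1.89 and 4.54. Slc23a2, the other such transporter, was higher in wild-type 2i than in wild-type serum, at 101 ± 22.3 against 67.3 ± 3.76 (0.57, adjusted p = 0.00387). Slc2a1, a glucose transporter that also carries oxidised vitamin C, was at 3504 ± 203 in wild-type serum, 1837 ± 366 in Daxx-null serum (-0.95, adjusted p = 0.00174) and 395 ± 133 in wild-type 2i (-3.20, adjusted p = 4.8e-09). Its relative Slc2a3 read 1421, 1301 and 1395 FPKM in Daxx-null 2i against 2281, 2277 and 5477 in wild-type 2i (-1.15, adjusted p = 0.0117), and without wild-type replicate 3 it was not called (-0.73, adjusted p = 0.0762).

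Among 20 genes listed around 2-oxoglutarate, 1 was higher and 2 lower with Daxx lost in serum, and 4 and 7 in 2i. Some of them, such as Psph, Sdha, Sdhb and Fh1, neither make nor use 2-oxoglutarate themselves. The 1 higher in serum was Psph (0.50), and Fh1 (0.91) had the largest difference in 2i. In wild-type retinoic acid 14 were lower and 1 higher than in serum (median -0.449 against -0.048 for all genes), led by Psat1 (-2.24) and Got1 (-2.17). Idh1, which makes 2-oxoglutarate from isocitrate, rose in wild-type 2i from 390.0 ± 36.7 to 1387 ± 78.0 FPKM (1.83, adjusted p = 2.1e-08).

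Enzymes that write the marks the 8 genes remove were counted as well. Between the genotypes 2 of 9 H3K9 methyltransferases were called higher and 0 lower in serum, and 2 and 3 in 2i. Ehmt2 (G9a), which dimethylates H3K9, was among the higher ones in serum (0.42) and among the lower ones in 2i (-0.36), where Kdm3a was lower too. Of 7 H3K36 methyltransferases 2 were called higher and 1 lower in Daxx-null than in wild-type serum. For the genotypes in 2i these counts were 2 and 0, where 28.6% of the list and 31.5% of all genes were higher. In wild-type retinoic acid 5 were higher than in serum, with Whsc1 (Nsd2) at 1.91. Of 11 genes of the H3K27 methyltransferase complex 8 were lower and 0 higher in wild-type retinoic acid (median -1.124), where the H3K27 demethylase Kdm6b was higher. Phf19 (-1.87), Jarid2 (-1.54) and Ezh1 (-1.49) led these. In Daxx-null cells 2 of the 11 were higher and 1 lower in serum, and 0 and 4 in 2i.

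Kdm2b works in the variant Polycomb complex PRC1.1, and of its 10 partner genes tested 3 were called higher and 4 lower with Daxx lost in serum, and 3 and 2 in 2i. Pcgf1, the subunit that defines the complex, was lower in both (-0.99 and -0.82), while Kdm2b was higher in both. In wild-type retinoic acid 6 partners were higher and 3 lower, with Cbx8 (2.62), Yaf2 (2.57) and Ring1 (1.41) ahead.

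Genes of the HIF pathway were mostly lower than in wild-type serum in the 3 groups compared with it. Of 28 tested, 21 were lower and 2 higher in Daxx-null serum (median -0.933), and 23 were lower and 2 higher in wild-type 2i than in serum (median -1.683). In wild-type retinoic acid 20 were lower and 3 higher (median -1.263). Wild-type serum is also where Kdm4b and Kdm4c were highest, but not Kdm3a. These 3 comparisons share the wild-type serum libraries. In Daxx-null 2i against Daxx-null serum 9 of the list were higher and 12 lower (median -0.107), with Kdm4c at -1.30 and Kdm4b at -0.94. In Daxx-null retinoic acid against that serum 7 were higher and 11 lower (median -0.459), with Kdm4c at -1.89 and Kdm4b at 0.21. Between the genotypes 7 were higher and 5 lower in 2i, and in retinoic acid 0 in either direction. The list shares Egln1, Egln3, P4ha1, P4ha2 and Slc2a1 with the lists above. Adm, a vascular peptide induced by hypoxia, differed most between the genotypes in serum (-3.02), followed by the stress gene Ddit4 (-2.32) and by Ndrg1 (-2.08). Egln3 was at 379 ± 2.42 FPKM in wild-type serum, 123 ± 46.4 in Daxx-null serum and 23.9 ± 1.08 in wild-type 2i. The part of HIF in the levels of Kdm4b and Kdm4c was not tested.

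Lastly, 7 genes reported elsewhere as targets of Kdm3a, Kdm4c or Kdm6b in stem cells were examined. Nanog is also among the stem cell markers summed above, and Pax6, Nes and Sox1 among the neural and retinoic acid response genes. Tcl1 and Tfcp2l1 are markers of the ground state. A change of cell state and any action of the demethylases on these genes cannot be told apart here. In Daxx-null serum 2 were higher and 0 lower, and in 2i 1 and 2, with Sox1 at -2.18 and Tcl1, a reported target of Kdm3a, at -1.83. In wild-type retinoic acid 4 were lower and 2 higher. Nanog, a pluripotency factor and reported target of Kdm4c, was at -8.81 there, and Tcl1 (-7.10) and Tfcp2l1 (-6.49) followed.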

How the data were processed

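RNA of 18 libraries, 3 for each of 6 groups, had been sequenced from total RNA after poly(A) selection with oligo(dT) and depletion of ribosomal RNA, per the labels' protocols. The submitters' processing notes name Bowtie2 2.2.6, HOMER 4.8 and limma with the mm9 build; their roles, the gene annotation and strand are not given in the sources used here. The authors deposited FPKM per gene and library, and a log2 table that matches log2(quantile-normalized FPKM + 1) within 4.99e-09 for genes above the median. Values times exon length sum to 5.82 to 6.10 M (mega), so the fixed total is by inference 10.0 M. At least 99.94% of low values were whole units within 0.1. Repeat tables were not used.

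Genes that reached 1 FPKM in 3 or more libraries (18002 of 24505) were tested on log2(FPKM + 0.5) with limma 3.58.1 in R 4.3.3, with 6 group means over all 18 libraries, a mean-variance trend and 9 contrasts. Adjusted p-values are Benjamini-Hochberg over all tested genes, called under 0.05. Fold changes on this scale understate those of low genes. The procedure was tested on simulated data. Intervals are 95%. Alternatives were other pseudocounts, filters and scalings, chromosome medians removed, a replicate block, a fit on the groups compared, and libraries left out. For genes above the median the authors' log2 table and quantile normalization differ only in the pseudocount, so they are not separate checks. The 8 members are named throughout. Of each pathway list at most 3 called genes per comparison are named, those with the largest difference, besides the transporters, the Kdm5 and Kdm6 genes and Daxx, plus Tet1 and Tet2, which were chosen after their values were seen. Likeness ranks genes with a mean of at least 10 FPKM. Members and lists were chosen with earlier results of these data known.

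Replicate numbers are shared between groups. In wild-type 2i against serum, same-numbered libraries deviated together (correlations 0.146, 0.171 and 0.326), a pairing seen in the data and not stated in the labels, and the block changed no call of a member there.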

Additional observations from a re-analysis of the deposited data

Results flagged for a closer look

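Differences of the genotype effect between cultures that passed the test (limma, adjusted p under 0.05 over all genes) are listed here, in log2 units. Between 2i and serum they were 0.61 ± 0.17 (SE) for Kdm6b, 0.53 ± 0.20 for Kdm4b, -0.33 ± 0.12 for Kdm3a, -0.38 ± 0.15 for Kdm3b and -0.41 ± 0.15 for Kdm4a. Between retinoic acid and serum the difference was 0.77 ± 0.20 for Kdm4b. Daxx-null 2i also differed from the other Daxx-null groups in Y-linked RNA, and its part in these values was not tested.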

How the results depend on the processing

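Of 72 results of members, 38 were called, 20 of them under every alternative, and 1 of the called ones reversed: Kdm3a in Daxx-null 2i against serum (0.42, and -0.0584 with chromosome medians removed). Of 34 not called, 9 were called under some alternative and 13 reversed under some. Members called between genotypes in serum went from 4 to 2 with the authors' log2 table, quantile normalization, median-ratio scaling or chromosome medians removed, and to 1 to 2 with single libraries left out. In 2i they went from 6 to 1 with only the groups compared and 4 to 6 with libraries left out. For the 2i difference of differences they went from 5 to 1 (authors' log2 table, quantile normalization, only the groups compared), 3 (replicate block, chromosome medians removed) and 1 to 4 (libraries left out). For retinoic acid they went from 1 to 2 (only the groups compared) and 0 to 1 (libraries left out). Over all genes, calls in 2i between genotypes went from 8431 to 3929 with only the groups compared, and the retinoic acid difference of differences from 1475 to 3739, or 839 to 1162 with libraries left out. Genotype calls in retinoic acid went from 448 to 281 (authors' log2 table), 288 (quantile normalization) and 240 to 385 (libraries left out). With only the groups compared, which leaves fewer libraries to estimate the spread, calls were also lost for Kdm2b in serum (adjusted p = 0.0554) and in Daxx-null retinoic acid (0.0648), and for Kdm2a (0.115) and Kdm3b (0.0721) in Daxx-null 2i against serum. The cause of the other changes was not tested.

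Uncalled values changed sign as follows. With chromosome medians removed, Kdm2a was at 0.0855, -0.0521 and 0.1376 (genotypes in retinoic acid, its difference from serum, and serum), Kdm2b at -0.2419 (2i difference of differences), Kdm3a at 0.009 (serum), Kdm3b at 0.0287 (retinoic acid) and Kdm6b at 0.0548 and 0.055 (wild-type 2i against serum, and genotypes in retinoic acid). With median-ratio scaling, Kdm2a was at 0.0003, -0.0033 and 0.0036 in the same 3 comparisons, Kdm2b at -0.2543, Kdm3b at 0.036 and Kdm4a at 0.0155 (wild-type 2i against serum). Kdm4a in Daxx-null retinoic acid against serum was at 0.0791 with the authors' log2 table and 0.0793 with quantile normalization. With single libraries left out, these ranges crossed 0. Between genotypes in retinoic acid they were -0.1 to 0.0091 for Kdm2a, -0.0293 to 0.013 for Kdm3b, -0.0011 to 0.1102 for Kdm4b and -0.073 to 0.1125 for Kdm4c. In serum Kdm3b ran from -0.0123 to 0.0633. In wild-type 2i against serum Kdm4a ran from -0.1801 to 0.0377 and Kdm6b from -0.2086 to 0.0191, the latter also without Daxx-null 2i replicate 2. The difference of differences ran from -0.0167 to 0.1195 for Kdm2a (retinoic acid) and from -0.0749 to 0.0711 for Kdm2b (2i).

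Outside wild-type 2i against serum, same-numbered libraries did not all deviate together (correlations -0.162 to 0.187, with 2 to 4 of 6 libraries closest to their own number). The replicate block took Kdm3a (-0.33, adjusted p = 0.0515) and Kdm3b (-0.38, adjusted p = 0.0636) out of the called 2i differences of differences and changed no other call of a member. Leaving out libraries for list genes printed with a test was chosen after seeing the data.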
